A study of Mus musculus with 8 samples.

Results

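The genes of the integrated stress response (ISR) and of the unfolded protein response (UPR) were followed in the neural retina of Mfp2-/- mice and of control mice, all 3 weeks of age. They were taken as a list of 42 gene symbols, 31 for the ISR and 11 for the endoplasmic reticulum (ER). The rule uses symbols and no measured value, but the list was drawn up with earlier results of these data known and is not independent of them. All 42 had counts, among 22095 genes with at least 1 count and 43472 symbols listed, and 41 of them were abundant enough to be tested beside 12516 genes in all. The libraries came from 4 control mice, of which control replicates 1, 3 and 4 were Mfp2+/+ and control replicate 2 was Mfp2+/-, and from 4 Mfp2-/- mice. All were C57BL/6J mice at postnatal day 21, and each library held both retinas of 1 mouse. The Mfp2-/- mice were bred from heterozygous parents and are constitutive knockouts of the peroxisomal β-oxidation enzyme MFP2, so the enzyme is missing in all organs and not only in the eye.

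When a cell is short of amino acids, carries unfolded protein in its ER or has failing mitochondria, kinases phosphorylate the initiation factor eIF2. General translation then slows while the mRNA of the transcription factor ATF4 is translated more, so that ATF4 activity need not show in the level of the Atf4 transcript. ATF4 and its partners switch on genes for amino acid synthesis, amino acid uptake and the charging of tRNA. Unfolded protein in the ER acts in addition through IRE1, which splices the Xbp1 mRNA, and through ATF6. These raise the ER chaperones and the machinery that removes misfolded protein. Photoreceptors make large amounts of membrane protein, and both responses are studied in retinal degeneration. The counts used here come from the 3′ ends of transcripts and do not show the splicing of Xbp1.

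ATF4 and the factors of ER stress are known to act through short elements in the promoters of their targets. RefSeq start sites on GRCm38.p6 with 250 bases before and 50 after them were at hand for 34 of the 42 genes. Both strands were searched for TGATGNAA, the shared part of the elements that ATF4 binds together with C/EBP proteins. The ER stress element (CCAAT and CCACG with 9 bases between them) and its second form (ATTGG and CCACG with 1 base between them) were searched likewise, and these 3 patterns did not overlap in any of the stretches shown. The first was found in 9 of 25 ISR genes and 1 of 9 ER genes, against 4.51% of 27025 genes with such a window and 2.61% of 9064 tested genes. Either ER element was found in 4 of 9 ER genes and 0 of 25 ISR genes, against 0.181% of the 27025 genes. A match is a description of letters and not evidence of binding. The stretches below, 5′ to 3′ and upstream of the start site, hold each upstream element with 20 bases on either side (up to the start site for Asns) and were chosen to show both kinds of promoter. Capitals mark the letters of the elements, written as they stand on the strand of the gene.
Atf3 (chr1:191183416-191183463, minus strand): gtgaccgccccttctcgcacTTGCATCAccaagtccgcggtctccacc
Nupr1 (chr7:126625553-126625600, minus strand): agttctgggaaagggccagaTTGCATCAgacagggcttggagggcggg
Chac1 (chr2:119351029-119351076, plus strand): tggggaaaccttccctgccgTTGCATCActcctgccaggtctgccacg
Asns (chr6:7693210-7693252, minus strand): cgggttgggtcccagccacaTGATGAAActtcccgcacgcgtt
Slc7a11 (chr3:50443633-50443699, minus strand): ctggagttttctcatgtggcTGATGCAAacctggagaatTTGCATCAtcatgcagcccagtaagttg
Aars (chr8:111033710-111033757, plus strand): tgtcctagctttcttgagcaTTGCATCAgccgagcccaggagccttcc
Vldlr (chr19:27216800-27216847, plus strand): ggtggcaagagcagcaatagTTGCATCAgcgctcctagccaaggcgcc
Hspa5 (chr2:34772005-34772063, plus strand): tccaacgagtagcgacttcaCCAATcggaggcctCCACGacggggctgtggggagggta
Hsp90b1 (chr10:86705513-86705676, minus strand): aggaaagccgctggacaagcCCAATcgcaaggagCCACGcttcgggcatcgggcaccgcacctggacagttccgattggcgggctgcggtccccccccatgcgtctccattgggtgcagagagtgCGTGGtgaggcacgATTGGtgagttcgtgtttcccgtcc
Creld2 (chr15:88819500-88819558, plus strand): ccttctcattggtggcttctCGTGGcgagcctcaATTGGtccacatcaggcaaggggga
Herpud1 (chr8:94386297-94386407, plus strand): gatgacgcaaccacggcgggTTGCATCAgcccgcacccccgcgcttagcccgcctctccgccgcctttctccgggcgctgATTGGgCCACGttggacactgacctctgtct

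The knocked-out gene, Hsd17b4, which encodes MFP2, was counted 47, 20, 78 and 37 times in controls 1 to 4 against 1, 0, 1 and 0 times in the Mfp2-/- libraries. The libraries held 1895485 to 3226187 counts in genes. Mfp2-/- replicates 2 and 3 stood apart in the share of reads outside annotated genes, at 10.8% and 15.7% against 22.6% to 29.9% in the other 6 libraries. The lowest of these 6 was control replicate 3. Reads given to no gene for any reason were 60.6% in control replicate 3 and 59.35% and 59.19% in Mfp2-/- replicates 2 and 3. In the remaining libraries they were 65.07% to 66.9%. Results that rest on Mfp2-/- replicates 2 and 3 are therefore also given without both. Rod markers summed to 25676 to 29402 CPM (counts scaled to the size of each library) in controls and 1115 to 1581 CPM in Mfp2-/- retinas, with 10 of 10 lower. From counts of whole retinas alone, fewer cells of a type and less RNA per cell cannot be told apart. For photoreceptors, the paper counted nuclei at 3 weeks of age and reported their number as normal. At the same age it also reported more photoreceptor nuclei with the TUNEL label of cell death, and shorter outer and inner segments.

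In Mfp2-/- retinas the ISR genes were mostly higher, while most ER genes did not pass the test. Among the 30 tested ISR genes 21 rose and 2 fell, and the median of their log2 fold changes was 1.13. Among the 11 ER genes 1 rose and 0 fell, with a median of 0.27. Of all 12516 tested genes 13.8% were called higher and 13.2% lower, and their median was -0.0039. In edgeR, 4 ER genes were higher and 1 lower at an unadjusted p under 0.05, and both DESeq2 and limma-voom called 1 higher and 0 lower. All 4 Mfp2-/- libraries lay outside the range of the 4 controls in 22 of the 41 tested genes, 20 above and 2 below, where this was so in 30.9% of all tested genes. 21 of these 22 were ISR genes. Values of each gene follow in the order of replicates 1 to 4 of each group, and log2FC is the log2 fold change of Mfp2-/- over control with its standard error after the ± sign.

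**Figure D1:**
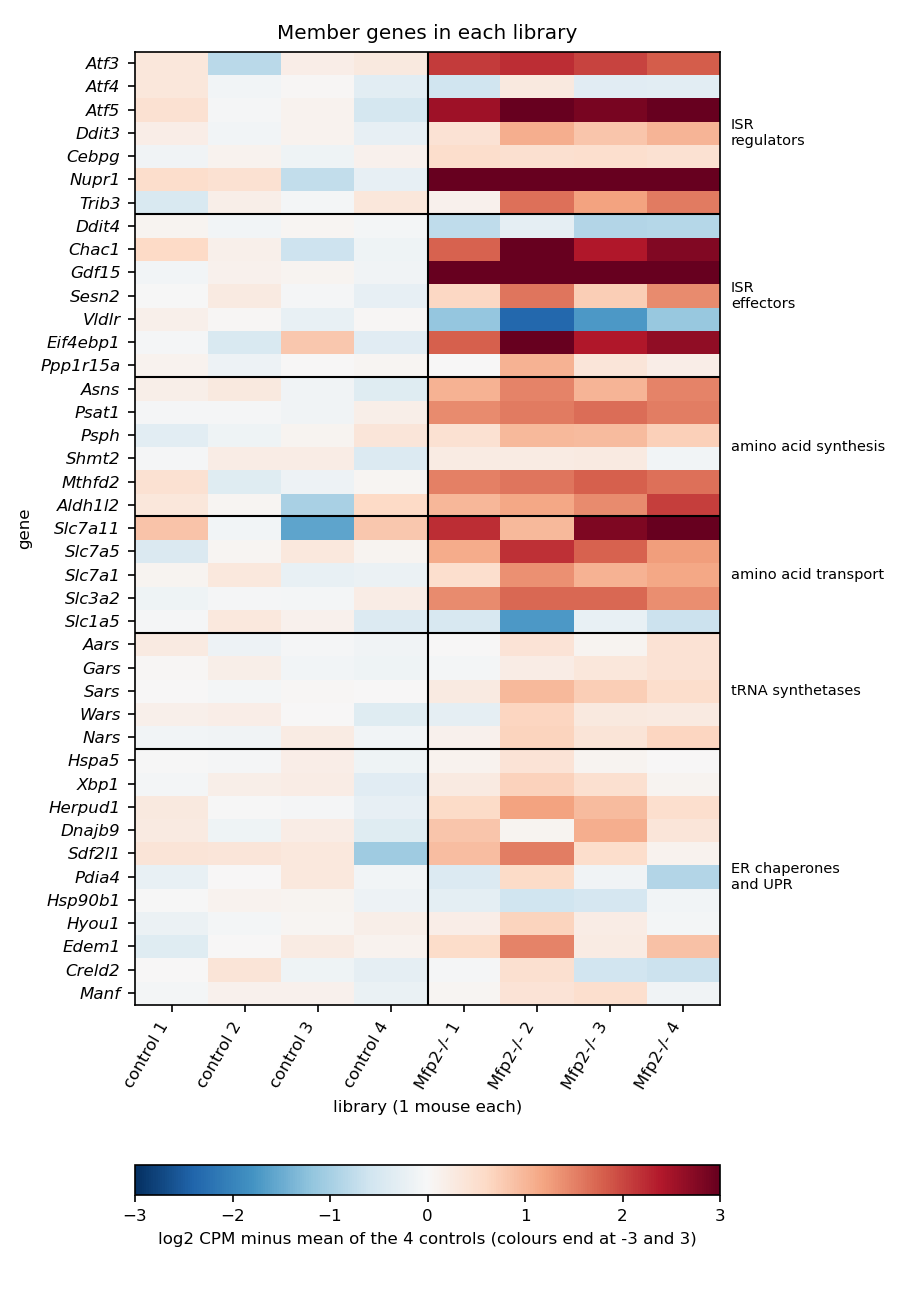
Log2 CPM of the 41 tested genes (rows, by role) in each library (columns, 1 mouse each), as the difference from the mean of the 4 controls. The Mfp2-/- columns are red for most ISR genes and pale for most ER genes, and Vldlr and Ddit4 are blue.

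Some of these genes were rare in controls. Atf3, Nupr1, Chac1, Gdf15, Eif4ebp1, Aldh1l2, Slc7a11 and Sdf2l1 passed the filter on low counts only through their Mfp2-/- libraries. Nupr1, Aldh1l2 and Sdf2l1 had 3 controls over it and the others fewer. Such a filter favours genes that are higher in Mfp2-/- retinas, so the number of these genes is no support. All of them but Sdf2l1 were also among the 20 genes whose Mfp2-/- libraries all lay above the controls, so that count holds the same selection. Leaving out every gene named here, 14 of 23 ISR genes rose and 2 fell, with a median log2FC of 0.65. Of 10 ER genes 1 rose, with a median of 0.25. By role, 4 of 5 regulators, 1 of 4 effectors, 4 of 5 genes of amino acid synthesis and 3 of 4 transporters were then higher. The counts by role given below include all tested genes.

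The regulators of the ISR rose in 6 of 7 cases, and the exception was Atf4. Atf4, the transcription factor at the centre of the response, was at 609, 453, 488 and 385 CPM in controls and 316, 581, 375 and 386 CPM in Mfp2-/- retinas. The groups overlapped and the change did not pass the test (log2FC -0.22 ± 0.21, adjusted p = 0.444). Atf5, a related factor that is translated under the same control, was at 30.2, 21.3, 23.5 and 15 CPM in controls and at 129.9, 246, 161 and 187 CPM in Mfp2-/- retinas. The lowest Mfp2-/- library was far above the highest control, and the fitted difference was 8.02-fold (log2FC 3.00 ± 0.25, adjusted p = 1.0e-05). Atf5 shares 82 exon bases with Nup62 on the other strand, whose own change was not called (log2FC 0.17).

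Nupr1, a small stress-induced chromatin protein, measured 9.46, 9.05, 3.55 and 5.23 CPM in controls and 92.4, 149.9, 131 and 139 CPM without MFP2 (log2FC 4.25 ± 0.28, adjusted p = 1.7e-06). Atf3, a repressor induced by ATF4, went from 2.91, 0.905, 2.58 and 2.79 CPM to 11.7, 12.7, 11.1 and 9.56 CPM (log2FC 2.23 ± 0.31, adjusted p = 4.9e-04). In both genes the lowest Mfp2-/- library was well above the highest control. Ddit3, which encodes CHOP, a factor tied to cell death under lasting stress, changed less. It was at 123, 99.97, 115 and 90.2 CPM in controls and 144, 229, 189.6 and 217 CPM in Mfp2-/- retinas (log2FC 0.86 ± 0.17, adjusted p = 0.00413), and it shares 68 exon bases with Mars on the other strand (log2FC 0.10, not called). Cebpg, the C/EBP partner of ATF4, had the smallest rise of the group, from 39.7, 45.7, 39 and 46.3 CPM to 61.9, 59.96, 60.8 and 58.5 CPM, with no overlap (log2FC 0.50 ± 0.12, adjusted p = 0.0113). Trib3, a pseudokinase that feeds back on ATF4, was at 4.73, 7.69, 6.45 and 8.71 CPM in controls and 7.43, 22.9, 16.5 and 21.3 CPM in Mfp2-/- retinas (log2FC 1.29 ± 0.35, adjusted p = 0.0203). Its first Mfp2-/- library lay within the controls. Trib3 lost its call with limma-voom, without control replicate 1 or 3 and without Mfp2-/- replicates 2 and 3, its adjusted p ranging from 0.00206 to 0.0609 over all alternatives.

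**Figure D2:**
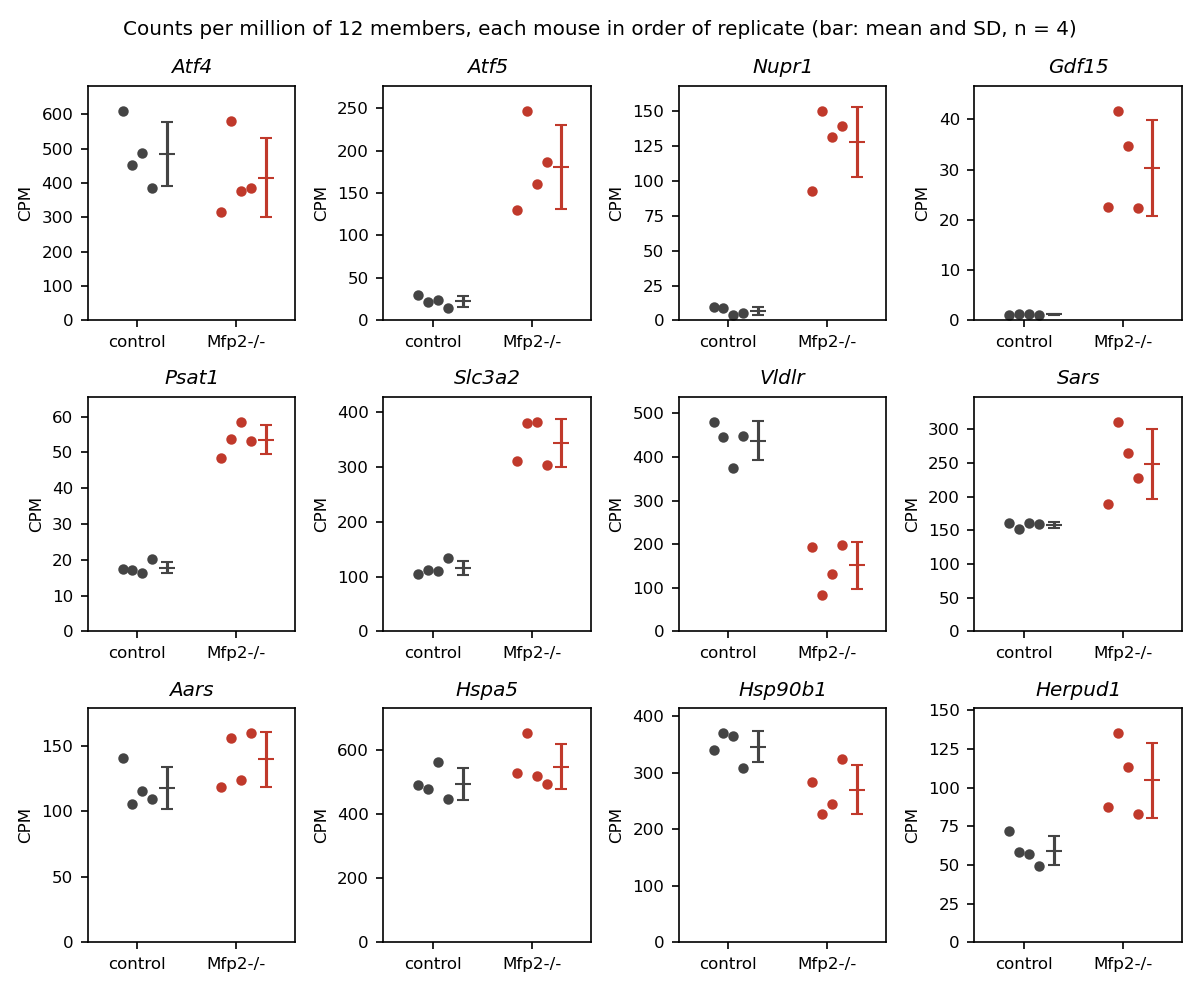
CPM (y axis, from 0) of 12 genes in each mouse, control in grey and Mfp2-/- in red, with mean and SD (n = 4 per group) beside the points. Atf5, Nupr1, Gdf15, Psat1, Slc3a2, Sars and Herpud1 separate upward and Vldlr downward, whereas Atf4, Aars, Hspa5 and Hsp90b1 overlap.

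The effectors of the ISR moved in both directions, with 4 of 7 higher and 2 lower. Without the genes that passed the filter only through Mfp2-/- libraries, 1 of 4 was higher and 2 were lower, with a median log2FC of -0.11. Gdf15, a secreted stress cytokine, was at 1.09, 1.36, 1.29 and 1.05 CPM in controls, which is 3, 3, 4 and 3 counts. In Mfp2-/- retinas it reached 22.6, 41.7, 34.6 and 22.4 CPM, the largest change among the tested members (log2FC 4.61 ± 0.33, adjusted p = 2.8e-06). Chac1, which degrades glutathione, went from 4.00, 2.71, 1.29 and 2.09 CPM to 9.91, 26.9, 15.8 and 20.6 CPM (log2FC 2.84 ± 0.40, adjusted p = 5.0e-04). Eif4ebp1, a translation inhibitor, was at 1.46, 0.905, 3.23 and 1.05 CPM in controls and 7.08, 18.8, 11.1 and 13.6 CPM without MFP2 (log2FC 2.83 ± 0.44, adjusted p = 9.6e-04). These 3 genes were rare in every control and passed the filter only through their Mfp2-/- libraries, so their number among the higher effectors is no support. Sesn2, a sensor of leucine that restrains mTORC1, rose from 9.46, 11.8, 9.35 and 8.01 CPM to 15.2, 30.5, 16.5 and 26.8 CPM (log2FC 1.20 ± 0.27, adjusted p = 0.00771).

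Vldlr, a lipoprotein receptor that is among the genes induced by ATF4 in other tissues, went the other way. It was at 480.0, 445, 374 and 448 CPM in controls and 194, 83.8, 132 and 197 CPM in Mfp2-/- retinas (log2FC -1.52 ± 0.24, adjusted p = 0.00114). Its promoter holds the same letters TTGCATCA as those of Atf3, Nupr1 and Chac1. Ddit4, an inhibitor of mTORC1 that also answers to hypoxia and glucocorticoids, fell from 187, 166, 182 and 167 CPM to 103, 144, 95.5 and 97.1 CPM (log2FC -0.68 ± 0.15, adjusted p = 0.00865). Neither gene overlapped between groups. Ppp1r15a, the phosphatase subunit that reverses the phosphorylation of eIF2, was at 17.1, 14, 15.8 and 16.4 CPM in controls and 15.9, 33.5, 20.5 and 18.4 CPM in Mfp2-/- retinas and did not pass the test (log2FC 0.46 ± 0.24, adjusted p = 0.174). Only its second Mfp2-/- library stood clearly above the rest.

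**Figure D3:**
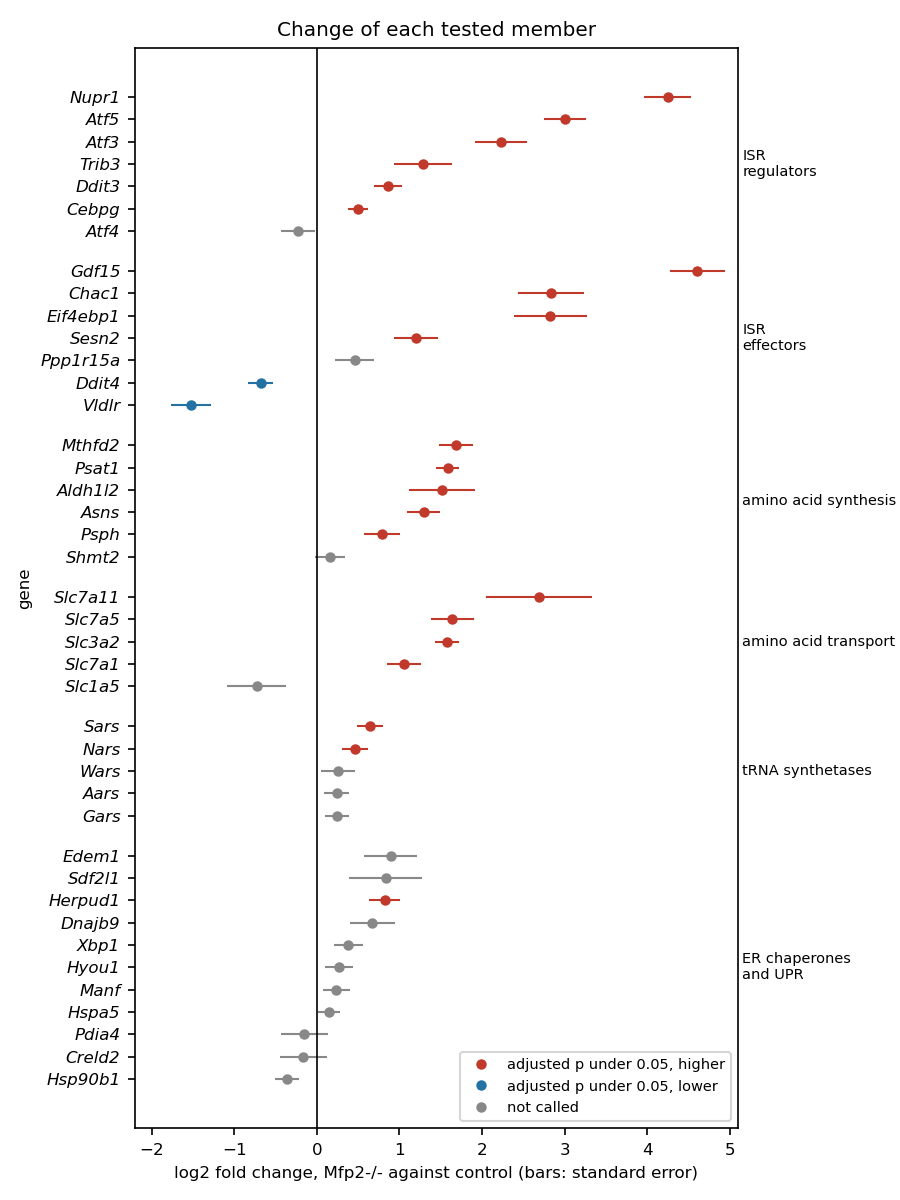
Log2FC between the groups (x axis, positive where higher in Mfp2-/-) with its standard error as a bar for the 41 tested genes, grouped by role and sorted within each group, red where higher and blue where lower at an adjusted p under 0.05. Genes of amino acid synthesis and transport lie mostly between 0.79 and 2.69, tRNA synthetases between 0.24 and 0.65 and ER genes between -0.36 and 0.90.

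Genes of amino acid synthesis rose in 5 of 6 tested cases, with a median log2FC of 1.41. Serine is made in a chain of 3 enzymes. Phgdh, the first of them, had 0, 0, 1 and 1 counts in controls and 9, 13, 15 and 6 counts in Mfp2-/- retinas and was too rare to be tested. The summed 43 against 2 counts gave a ratio of 22.4 after scaling, with 5.84 to 191 as its exact 95% interval, in which counting error alone is covered. Psat1, the middle enzyme, was at 17.5, 17.2, 16.4 and 20.2 CPM in controls and 48.5, 53.9, 58.5 and 53.3 CPM in Mfp2-/- retinas (log2FC 1.58 ± 0.14, adjusted p = 1.3e-05). The spread within each group was small beside this difference of 3.00-fold. Psph, the last enzyme, rose from 8.73, 9.95, 11.6 and 14.3 CPM to 15.2, 22.4, 21.9 and 18.4 CPM (log2FC 0.79 ± 0.22, adjusted p = 0.0209). It shares 452 exon bases with Cct6a on the other strand (log2FC -0.14, not called). Psph lost its call without control replicate 1 or 2, without Mfp2-/- replicate 3 and without Mfp2-/- replicates 2 and 3, its adjusted p ranging from 0.0112 to 0.122 over all alternatives.

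Serine feeds the mitochondrial folate pathway, of which 2 of 3 listed genes rose. Shmt2, which passes the carbon of serine to folate, was at 28, 33.5, 33.2 and 21.2 CPM in controls and 34, 34, 34.6 and 26.8 CPM in Mfp2-/- retinas and was not called (log2FC 0.16 ± 0.18, adjusted p = 0.528). Mthfd2, the next enzyme, rose from 11.6, 6.33, 7.42 and 8.71 CPM to 25.1, 26.9, 30.6 and 27.6 CPM (log2FC 1.68 ± 0.21, adjusted p = 1.8e-04). All 4 Mfp2-/- values of Mthfd2 were close together and well above the highest control. Aldh1l2, which makes NADPH at the end of the chain, went from 5.1, 4.07, 1.61 and 6.27 CPM to 8.49, 9.65, 11.8 and 18.8 CPM (log2FC 1.52 ± 0.40, adjusted p = 0.0169). Aldh1l2 shares 1056 exon bases with the more abundant D10Wsu102e on the other strand, which was not called (log2FC 0.08). Asns, asparagine synthetase, was at 19.3, 20.8, 15.8 and 12.9 CPM in controls and 35.7, 48.8, 35.3 and 48.9 CPM without MFP2, with no overlap (log2FC 1.30 ± 0.20, adjusted p = 8.0e-04).

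Amino acid transporters rose in 4 of 5 cases, with a median log2FC of 1.58. Slc3a2, the heavy chain that carries several light chains to the cell surface, was at 105, 112, 111 and 133 CPM in controls and 310.3, 380.1, 382 and 303 CPM in Mfp2-/- retinas (log2FC 1.58 ± 0.14, adjusted p = 1.8e-05). Slc7a5, its light chain for large neutral amino acids, measured 17.8, 25.3, 30.6 and 25.8 CPM and 54.1, 114, 85.4 and 59.6 CPM (log2FC 1.64 ± 0.26, adjusted p = 9.3e-04). Both chains of this transporter were thus higher in every Mfp2-/- mouse, by 2.98-fold and 3.12-fold. Slc7a11, the light chain that exchanges cystine for glutamate, varied widely, with 5.1, 2.26, 0.323 and 4.88 CPM in controls and 14.2, 5.59, 21.5 and 39.3 CPM in Mfp2-/- retinas (log2FC 2.69 ± 0.65, adjusted p = 0.0114). The second Mfp2-/- library was barely above the highest control, and the fourth was the highest. Slc7a1, a transporter of cationic amino acids, rose from 23.7, 28, 19 and 19.5 CPM to 31.8, 58.9, 46.7 and 50.4 CPM (log2FC 1.06 ± 0.21, adjusted p = 0.00400). Slc1a5, a glutamine carrier, was rare in both groups, at 6.55, 8.6, 7.42 and 4.88 CPM and 4.6, 1.52, 5.71 and 4.04 CPM, and was not called (log2FC -0.73 ± 0.36, adjusted p = 0.154). It was over the filter on low counts in 4 control and 3 Mfp2-/- libraries. It is kept where genes that passed only through Mfp2-/- libraries are left out.

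The cytosolic tRNA synthetases, which charge tRNA with amino acids, rose in 2 of 5 cases. Their median log2 fold change was 0.26. Sars, for serine, was steady in controls at 160.1, 152, 161 and 159.9 CPM and was at 189, 310.5, 265 and 227 CPM in Mfp2-/- retinas, with no overlap (log2FC 0.65 ± 0.16, adjusted p = 0.0121). Nars, for asparagine, was at 156, 152, 195 and 156 CPM and 179, 260.2, 214 and 256 CPM and passed narrowly (log2FC 0.46 ± 0.16, adjusted p = 0.0492). Its groups overlapped, and the call was lost under 10 of 18 alternatives, with an adjusted p of 0.0178 to 0.135 over all of them. Aars, for alanine, was at 141, 106, 115 and 109 CPM in controls and 119, 156, 124 and 159.6 CPM without MFP2 (log2FC 0.24 ± 0.15, adjusted p = 0.256), and Gars, for glycine, was at 99.4, 109.9, 91.6 and 87.8 CPM and 92.4, 113, 122 and 132 CPM (log2FC 0.24 ± 0.14, adjusted p = 0.234). Wars, for tryptophan, was at 30.6, 31.7, 27.4 and 21.2 CPM and 22.6, 43.2, 33.6 and 33.5 CPM (log2FC 0.26 ± 0.21, adjusted p = 0.389). None of these 3 passed the test, and in each the groups overlapped, with Aars and Gars holding the letters of the ATF4 element in their promoter windows.

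Of the 11 ER genes, only Herpud1 passed the test. Herpud1, a membrane protein that helps to remove misfolded protein from the ER, was at 71.7, 58.4, 57.1 and 49.1 CPM in controls and 87.8, 135, 113 and 82.7 CPM in Mfp2-/- retinas (log2FC 0.82 ± 0.18, adjusted p = 0.00809). All 4 Mfp2-/- libraries were above all controls. Among the 9 ER genes with a promoter window, Herpud1 was also the one whose window held the ATF4 letters, beside an ER element, which was noticed after the values were seen. Hspa5, the main ER chaperone BiP, was at 491, 478, 563 and 448 CPM in controls and 529, 653, 519 and 494 CPM without MFP2 and was not called (log2FC 0.15 ± 0.14, adjusted p = 0.441). Hsp90b1, the chaperone GRP94, was at 340.3, 369.6, 364 and 309 CPM and 282, 227, 244 and 324 CPM (log2FC -0.36 ± 0.14, adjusted p = 0.0891). Thus the 2 abundant chaperones, both with an ER element in their promoter, had small values of opposite sign. Without Mfp2-/- replicate 4, Hsp90b1 was called lower (adjusted p = 0.0433, with 0.0411 to 0.313 over all alternatives).

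Xbp1, the transcription factor of the IRE1 arm, was at 53.1, 63.3, 65.2 and 43.9 CPM in controls and 67.6, 89.9, 78 and 59.2 CPM in Mfp2-/- retinas (log2FC 0.38 ± 0.17, adjusted p = 0.125). Only Mfp2-/- replicate 4 lay within the controls. Dnajb9, a co-chaperone of BiP, had 11.6, 8.6, 11.3 and 7.32 CPM and 17.7, 10.2, 21.2 and 12.5 CPM (log2FC 0.67 ± 0.27, adjusted p = 0.0916), and Edem1, which marks misfolded glycoproteins for removal, had 4.37, 5.88, 7.1 and 6.27 CPM and 8.85, 17.8, 7.06 and 11.4 CPM (log2FC 0.90 ± 0.32, adjusted p = 0.0621). Both had positive values below the threshold, and Edem1 was called without Mfp2-/- replicate 3 (adjusted p 0.0367 to 0.145 over all alternatives) and Dnajb9 without Mfp2-/- replicate 2 (0.0346 to 0.261). Sdf2l1, a partner of the ER co-chaperones, was rare in both groups, at 5.1, 4.98, 4.84 and 1.39 CPM in controls and 7.79, 12.2, 5.71 and 4.04 CPM without MFP2 (log2FC 0.84 ± 0.44, adjusted p = 0.182). The remaining ER genes were not called. Their log2FC was 0.27 ± 0.17 for the chaperone Hyou1 and 0.24 ± 0.16 for the secreted ER stress factor Manf. It was -0.16 ± 0.28 for the disulfide isomerase-like Creld2 and -0.15 ± 0.29 for the disulfide isomerase Pdia4. The last 2 were imprecise, with -0.42 to 0.0031 for Creld2 and -0.67 to 0.06 for Pdia4 over all alternatives. Pdia4 and Creld2 changed sign without Mfp2-/- replicate 4, and Manf without Mfp2-/- replicates 2 and 3. The adjusted p of these 4 genes ran from 0.269 for Hyou1 to 0.726 for Pdia4.

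ATF4 target genes and ER genes were then set side by side, taking as targets the 16 tested genes of amino acid synthesis, transport and tRNA charging. Of these 16 genes 11 rose and 0 fell, with a median log2FC of 0.92, against 1 of 11 and 0.27 for the ER genes. At an unadjusted p under 0.05, edgeR had 11 targets higher and 0 lower, and DESeq2 and limma-voom each called 11 higher and 0 lower. The difference between the medians was 0.66 on the log2 scale. Without the genes that passed the filter only through Mfp2-/- libraries, 9 of 14 targets rose, the medians were 0.72 and 0.25 and the difference was 0.47. Taken library by library against the mean of the controls and over all tested genes of both groups, the difference was 0.05, -0.0077, -0.23 and 0.17 in control replicates 1 to 4 and 0.28, 0.40, 0.74 and 0.93 in Mfp2-/- replicates 1 to 4. Every Mfp2-/- library lay above every control, at a mean of 0.59 ± 0.30 (SD, n = 4 mice) against -0.0039 ± 0.17. Without the genes named for the filter, the difference was 0.21, 0.45, 0.61 and 0.70 in Mfp2-/- replicates 1 to 4 and -0.17 to 0.10 in controls. No p is given, since the genes were listed with results of these data known. Under other scalings of the libraries the median of all genes shifted to between -0.10 and 0.12. Relative to it, the targets were at 0.93 and the ER genes at 0.27 to 0.28 under the 5 scalings, which move all genes by about the same amount and so cannot alter such a difference much. The median of the ER genes was 0.18 without Mfp2-/- replicate 2.

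**Figure D4:**
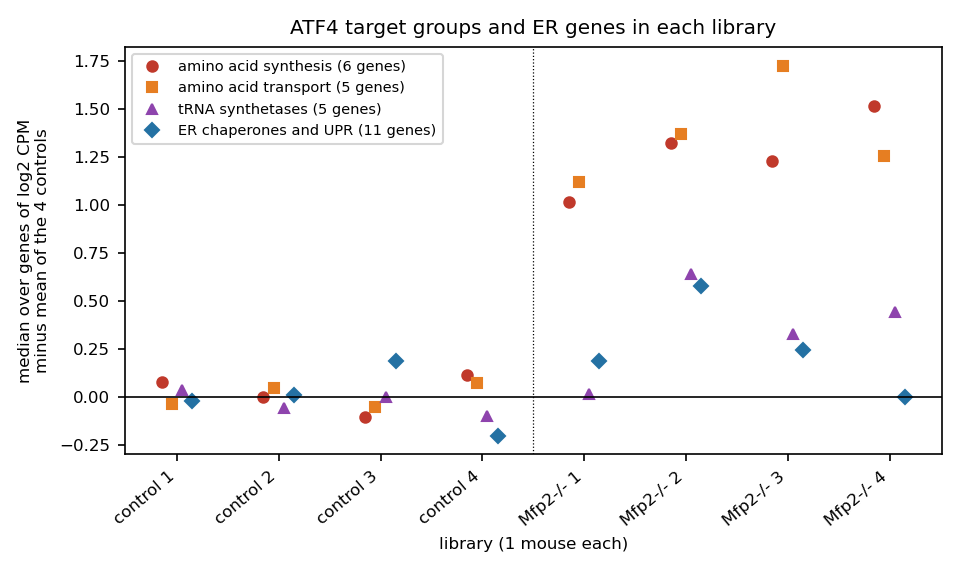
Median over the genes of each group of log2 CPM minus the mean of the 4 controls (y axis) in each library (x axis). Amino acid synthesis and transport lie at 1.02 to 1.73 in the 4 Mfp2-/- libraries, while tRNA synthetases (0.02 to 0.64) and ER genes (0.0032 to 0.58) lie lower.

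Within the targets, the genes of amino acid synthesis and transport together had a median log2FC of 1.52 and the tRNA synthetases one of 0.26, and this difference was not tested. The latter median was 0.43 without Mfp2-/- replicate 1. In the first Mfp2-/- library the median of the synthetases was 0.02 above the controls, and in the second it was 0.64.

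The Mfp2-/- libraries differed among themselves. Mfp2-/- replicate 2 held the highest value of its group in 26 of 41 tested genes and in 8 of the 11 ER genes, and replicate 1 in 1 of 41. The mean log2 CPM of replicates 2 and 3 was above that of replicates 1 and 4 in 25 of 30 ISR genes (median difference 0.23) and 9 of 11 ER genes (median difference 0.38), against 6395 of all 12516 tested genes (median 0.01). Among the 7 members below, the widest gaps between these pairs were those of Slc7a11, at -1.04, and Vldlr, at -0.89. Without replicates 2 and 3, 18 ISR genes rose, the same genes as before apart from Trib3, Psph and Nars, and the 2 that fell were still called. The median of the targets was then 0.72 and that of the ER genes 0.06, and their difference was 0.67. Replicates 2 and 3 were those with fewer reads outside genes. Lens markers, which are genes of lens fibre cells, summed to 5410 and 2978 CPM in these 2 libraries, to 1734 and 292 CPM in Mfp2-/- replicates 1 and 4 and to 284 to 1213 CPM in controls. The part of either in the values was not tested.

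Other genes of the same pathways were taken from lists written for this purpose. These lists too were drawn up with earlier results of these data known and are not independent of them. Of 13 tested further ATF4 target genes 10 rose and 0 fell (12 and 0 at an unadjusted p under 0.05 in edgeR, 9 and 0 with DESeq2, 10 and 0 with limma-voom), with a median log2FC of 0.88. Slc7a3 and Cth passed the filter only through Mfp2-/- libraries, and without them 9 of 11 rose, with a median of 0.67, beside 13.8% of all tested genes. The lead genes were Slc7a3, a cationic amino acid transporter (3.15 ± 1.31 CPM in controls and 13.6 ± 2.77 CPM in Mfp2-/- retinas, mean ± SD, n = 4 each; log2FC 2.08 ± 0.32, adjusted p = 8.4e-04), the AP-1 repressor Jdp2 (14.9 ± 2.45 and 33.4 ± 5.95 CPM; log2FC 1.16 ± 0.19, adjusted p = 0.00127) and mitochondrial PEP carboxykinase, Pck2 (10.6 ± 2.36 and 23.1 ± 1.97 CPM; log2FC 1.13 ± 0.19, adjusted p = 0.00171). Fgf21 had no count in any library. Upstream of ATF4, 0 of 12 tested genes for the eIF2 kinases, eIF2 and its exchange factor eIF2B were called in either direction, with a median of 0.07. Of all tested genes 13.8% were called higher and 13.2% lower. In that list 1 gene was higher at an unadjusted p under 0.05 in edgeR, and DESeq2 and limma-voom called 0. The kinase gene Eif2ak2 was too rare to be tested. It had 4, 0, 4 and 9 counts in controls and 20, 6, 14 and 23 counts in Mfp2-/- retinas, and its groups overlapped in CPM.

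Of 28 tested further genes for ER folding and removal of misfolded protein 2 rose and 2 fell, where 13.8% of all tested genes rose and 13.2% fell. Their median log2FC was 0.07, and 5 were higher and 4 lower at an unadjusted p under 0.05 in edgeR. They were Derl1, a subunit of the exit channel for misfolded protein (log2FC 0.59 ± 0.17, adjusted p = 0.0265), the lectin chaperone Canx (log2FC 0.39 ± 0.13, adjusted p = 0.0495), the translocon subunit Ssr1 (log2FC -0.38 ± 0.12, adjusted p = 0.0372) and the thioredoxin-like Txndc11 (log2FC -0.48 ± 0.16, adjusted p = 0.0437). Among 8 genes of the UPR sensors and their activating proteases 1 rose, Creb3l1, a membrane-bound factor cut in the Golgi like ATF6 (log2FC 1.71 ± 0.34, adjusted p = 0.00395), and the median was 0.05. Creb3l1 passed the filter only through Mfp2-/- libraries, and 0 of the other 7 were called in edgeR (0 also at an unadjusted p under 0.05), while DESeq2 and limma-voom each called 1 of the 8 higher. Of 15 other cytosolic tRNA synthetases 1 rose, the leucine enzyme Lars (log2FC 0.60 ± 0.15, adjusted p = 0.0146), and 2 fell, Farsa (log2FC -0.83 ± 0.15, adjusted p = 0.00223) and Qars (log2FC -0.81 ± 0.16, adjusted p = 0.00473), with a median of 0.09.

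**Figure D5:**
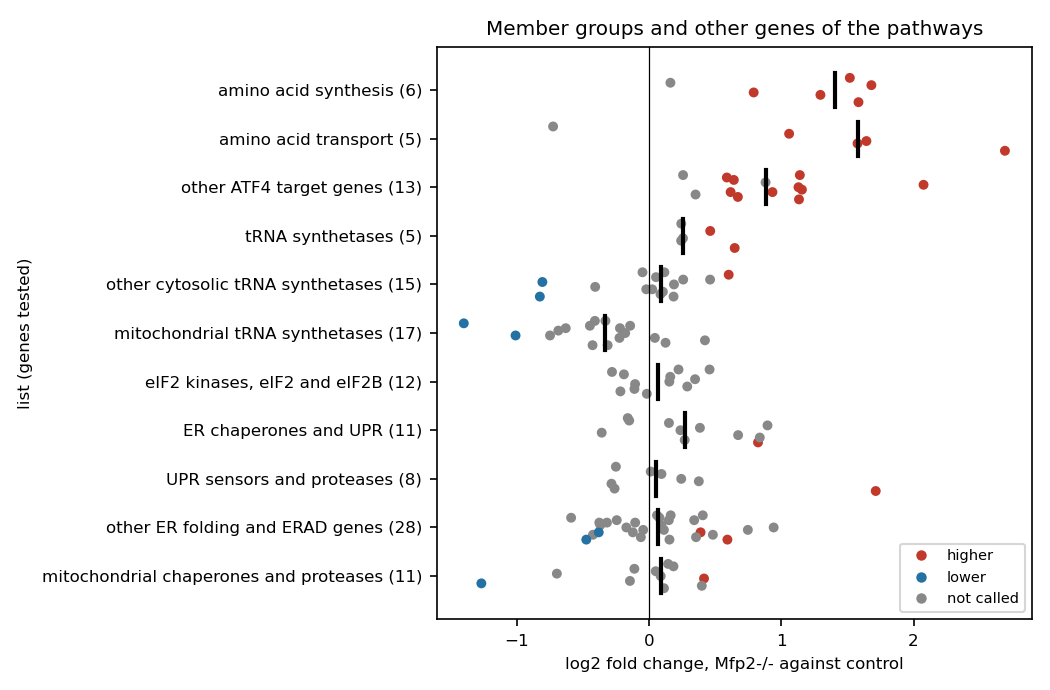
Log2 fold change (x axis) of each tested gene in the member groups and the wider lists (rows, number of tested genes in brackets), red higher, blue lower and grey not called, with the median as a black bar. Further ATF4 target genes lie at a median of 0.88, while the lists for eIF2, the UPR sensors and ER folding lie between 0.05 and 0.07.

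Markers of several cell types moved with the groups, and their part in the values above was not tested. Of all tested genes 13.8% were called higher and 13.2% lower. Of 12 microglia markers, 11 were tested and all 11 were higher, with sums of 83.2 to 102 CPM in controls and 424 to 559 CPM in Mfp2-/- retinas, P2ry12 being at 0 in 1 control. Of these, Aif1, Trem2, Tyrobp, Tmem119 and C1qc passed the filter only through Mfp2-/- libraries, as did Timp1 and Lcn2 of the gliosis markers, and without them 6 of 6 and 3 of 3 were higher. The gliosis markers rose in 5 of 5 cases, from sums of 25.1 to 41.5 CPM to 645 to 877 CPM, with Timp1 at 0 in 1 control. Müller glia markers rose in 5 of 8 cases, with sums of 3674 to 4246 CPM in controls and 4524 to 5949 CPM in Mfp2-/- retinas. Apoe rose from a mean of 603 CPM to 1679 CPM. Glul went the other way, from 2300 CPM to 1604 CPM, and was not called (log2FC -0.52 ± 0.23, adjusted p = 0.111). Rlbp1 and Abca8a were not called either. At an unadjusted p under 0.05 edgeR had 5 Müller glia markers higher and 1 lower. Bipolar markers rose in 6 of 6 cases. Cone markers fell in 5 of 6 cases. Of 5 endothelial and 4 tested pigment epithelium markers 0 were called in edgeR, with 0 at an unadjusted p under 0.05 and 0 with DESeq2 and limma-voom. Lens markers overlapped between groups, with 2 of 6 called higher (6 at an unadjusted p under 0.05 in edgeR, 2 with DESeq2 and 0 with limma-voom) and a median log2FC of 2.04. Of the 2, Lim2 passed the filter only through Mfp2-/- libraries, and without it 1 of 5 lens markers was called higher, with a median of 1.96.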

How the data were processed

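RNA of neural retinas from 4 control and 4 Mfp2-/- mice was sequenced by the authors from the 3′ ends of transcripts (QuantSeq). The values deposited by the authors are raw counts of reads per gene symbol, 1 file per library, made on the mouse genome mm10. Their processing notes name FastQC 0.11.7, HISAT2 (its version is not given in the sources used here), SAMtools 1.5 and, last, HTSeq 2.7.14, without their settings. Neither the gene annotation used nor the strand setting is stated in these sources, so genes that overlap on opposite strands cannot be told apart. The 5 closing lines of each file that name no gene, such as reads without a unique place or outside genes, were left out (59.2% to 66.9% of all reads). A table of the whole series was not used. Groups are those of the labels, in which the Mfp2+/- mouse is a control.

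The counts were tested with edgeR 4.0.16 (R 4.3.3), using filterByExpr, TMM factors, quasi-likelihood test, Benjamini-Hochberg adjustment over all 12516 genes kept, called at an adjusted p under 0.05. CPM use TMM library sizes, log2 CPM a prior count of 2, and the standard error is the log2 fold change divided by the square root of edgeR's F. The scaling was varied (RLE, upper-quartile, none, and TMM on the genes other than rod and cone markers and those called lower), as was the filter (none, or 10 counts in every library). Further alternatives were DESeq2 1.42.0, limma-voom (limma 3.58.1, the package the study used), a block for the replicate number, and fits without 1 library or without Mfp2-/- replicates 2 and 3. With 4 mice per group, 1895485 to 3226187 counts per library and no molecular identifiers, rare genes are imprecise, and exact intervals cover counting error only.

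The members and lists were chosen with earlier results of these data known. Values of every library are given for each called member, and up to 3 called genes with the smallest adjusted p are named per wider list, other genes having been named after their values were seen. Promoter windows are RefSeq sequences on GRCm38.p6, and exon overlaps are from GENCODE M21 on GRCm38.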

Additional observations from a re-analysis of the deposited data

Results flagged for a closer look

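In 6 of 84 groups of 4 libraries (7.14%, where chance gives about 5%) the highest or lowest library was far from the other 3. In controls these were Atf3, lowest in replicate 2 at 0.905 CPM with the next at 2.58 CPM, Sars, lowest in replicate 2 at 152 CPM with the next at 159.9 CPM, Nars, highest in replicate 3 at 195 CPM with the next at 156 CPM, and Sdf2l1, lowest in replicate 4 at 1.39 CPM with the next at 4.84 CPM. Among Mfp2-/- libraries they were Ddit4, highest in replicate 2 at 144 CPM with the next at 103 CPM, and Shmt2, lowest in replicate 4 at 26.8 CPM with the next at 34.0 CPM. Of these genes Atf3, Sars and Ddit4 kept their calls under every alternative in which they were tested, Shmt2 and Sdf2l1 were called under none of them, and Nars changed its call as given above.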

How the results depend on the processing

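The 21 ISR genes called higher numbered 15 to 21 under the other alternatives and 18 to 21 when 1 library was left out, and the 2 called lower were 2 under each. The 22 genes with separate groups numbered 17 to 28. The difference between ATF4 targets and ER genes, 0.66 on the log2 scale, was 0.54 to 0.79 over all alternatives. The single ER gene called higher became 3 with upper-quartile factors, 4 with no factors and 2 with 10 counts in every library, and 1 ER gene was called lower with TMM factors without rod and cone markers and genes called lower, and the cause of these moves was not tested. Leaving out 1 library gave 1 to 2 ER genes higher and 0 to 1 lower. The added calls were Edem1 without Mfp2-/- replicate 3, Dnajb9 without Mfp2-/- replicate 2 and Hsp90b1 without Mfp2-/- replicate 4. Over single genes, 702 of 730 values kept their call, 18 lost it, 10 gained one, and 0 called values changed sign. With the replicate number as a block, 20 ISR genes were higher and 2 lower, 1 ER gene was higher and the difference was 0.67. Deviations of same-numbered libraries correlated at 0.08, -0.16, 0.25 and 0.21, and not every library correlated best with its own number, so the numbers were not taken as pairs. Those of control replicate 3 correlated at 0.48 and 0.25 with Mfp2-/- replicates 2 and 3 and at -0.41 and -0.44 with replicates 1 and 4. Other scalings moved the share of higher among all called genes from 51.2% to 64.2% (upper-quartile), 65.2% (no factors) and 39.2% (TMM without the genes named). Depth limits the rare genes, since 23 ISR and 10 ER genes were left when 10 counts were required in every library.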

Other observations

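The mitochondrial tRNA synthetases are for the most part encoded by other genes than the cytosolic ones. Of 17 tested genes 0 rose and 2 fell in edgeR, the methionine enzyme Mars2 (log2FC -1.40 ± 0.40, adjusted p = 0.0256) and the tryptophan enzyme Wars2 (log2FC -1.01 ± 0.30, adjusted p = 0.0293), where 13.2% of all tested genes were lower, with a median log2FC (log2 fold change of Mfp2-/- over control, ± standard error) of -0.33. At an unadjusted p under 0.05 edgeR had 0 higher and 8 lower, DESeq2 called 0 higher and 2 lower and limma-voom 0 higher and 4 lower. All 4 Mfp2-/- libraries lay below all controls in 8 of the 17 genes, where the groups did not overlap in 30.9% of all tested genes in either direction, and 14 of the 17 log2 fold changes were negative. Of the 17, 4 passed the filter on low counts only through the control libraries, which favours genes that are lower in Mfp2-/- retinas. Mars2, Wars2 and Pars2 were among them, and each is also counted in the 8 genes that lay below all controls. Another 2 did not pass the filter in the controls alone.

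Of 11 mitochondrial chaperones and proteases 1 rose and 1 fell, beside 13.8% and 13.2% of all tested genes, with a median of 0.09. The chaperone Hspa9 was at 99 ± 9.31 CPM in controls and 132 ± 14.1 CPM in Mfp2-/- retinas (mean ± SD, n = 4 each; log2FC 0.41 ± 0.13, adjusted p = 0.0385), with overlapping groups. Spg7, a protease subunit of the inner membrane, was at 157 ± 10.7 and 65.1 ± 4.12 CPM (log2FC -1.27 ± 0.12, adjusted p = 2.4e-05), and every Mfp2-/- library was below every control.

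Of the 10 members whose promoter window held TGATGNAA on either strand, 7 were called higher, 1 lower and 2 not called, and of the 24 members whose window did not, 11 were called higher, 1 lower and 11 not called, and 1 was not tested. Among the former 4 genes (Atf3, Nupr1, Chac1 and Slc7a11), and among the latter 2, passed the filter only through Mfp2-/- libraries. Without them 3 of 6 genes with these letters and 10 of 21 tested genes without them were called higher, and 1 of each was lower. These counts are a description over genes listed with results known. Of all tested genes 13.8% were called higher and 13.2% lower.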
